A study of Homo sapiens with 6 samples.

Results

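The miR-200 family was followed in small RNA libraries of A549 cells, a cell line established from a human lung adenocarcinoma, with and without the *MIR21* gene. The 8 mature miRNAs described here come from the cluster of miR-200b, miR-200a and miR-429 and from that of miR-200c and miR-141. They were picked by name out of 2588 mature miRNAs in the deposited table. There were 3 libraries of parental A549 cells (Ctrl) and 3 of A549 cells in which a short stretch of DNA holding *MIR21* had been cut out with Cas9 and 2 guide RNAs (*MIR21*-KO), and all cells were harvested 48 h after plating. By the study's methods the knockouts were raised from single sorted cells. The sources used here do not say how many clones stand behind the 3 *MIR21*-KO libraries. The labels give no other difference between the groups, and nothing in them ties a library to a separate culture, so all p-values measure the spread between these libraries.

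MicroRNAs of this family keep epithelial cells epithelial. Their 3p strands pair with the messages of ZEB1 and ZEB2, transcription factors that shut off E-cadherin during epithelial to mesenchymal transition, and the ZEB factors in turn repress both miR-200 loci. Each hairpin precursor gives a 5p and a 3p strand, of which usually a single one is kept by Argonaute. The seed, bases 2 to 8 of the mature strand, governs which messages are bound.

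Mature sequences from RefSeq (GRCh38.p14) matched 7 of the 8 members by name. They are shown 5′ to 3′ with the seed in capitals, because the seed divides the family and because the close likeness of the strands bears on how reads were assigned. The first seed group holds the 3p strands that read AAUACUG.

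hsa-miR-200b-3p: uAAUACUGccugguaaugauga
hsa-miR-200c-3p: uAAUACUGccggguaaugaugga
hsa-miR-429: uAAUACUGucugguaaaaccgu

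The second holds the 3p strands that read AACACUG.

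hsa-miR-200a-3p: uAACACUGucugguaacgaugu
hsa-miR-141-3p: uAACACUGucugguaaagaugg

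The 5p strands of the chromosome 1 hairpins share a seed of their own, AUCUUAC.

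hsa-miR-200a-5p: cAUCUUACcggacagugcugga
hsa-miR-200b-5p: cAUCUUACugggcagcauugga

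The last member, hsa-miR-141-5p, is given by name. The seeds of the 3p strands differ at 1 position, counted from the 5′ end: C4U from miR-200a-3p to miR-200b-3p. Across clusters the strands are closer still. miR-200b-3p and miR-200c-3p differ at 2 of 22 positions (U11G and A22G), as do miR-200a-3p and miR-141-3p (C17A and U22G). How reads fitting more than one miRNA were counted is not given in the sources used here, so reads of a scarce member could belong in part to its abundant relative, and how large that part might be was not tested. The strands are 22 nt long, or 23 nt for miR-200c-3p, so length alone sets their values little apart. Whether the reads of different strands follow their levels in the cells equally well was not tested.

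The hairpins lie at 2 loci of GRCh38, all on the plus strand, and GENCODE 29 was used to annotate them. MIR200B (chromosome 1, 1167104 to 1167198), MIR200A (1167863 to 1167952) and MIR429 (1169005 to 1169087) span 1984 bases, and no gene annotated in GENCODE 29 contains them. MIR200C (chromosome 12, 6963699 to 6963766) and MIR141 (6964097 to 6964191) span 493 bases within an intron of the lincRNA gene MIR200CHG.

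The libraries held 6180032 to 9768152 miRNA reads in Ctrl and 5577287 to 8671618 in *MIR21*-KO. Levels below are the deposited values, TMM-scaled counts per 1000000, in which TMM sets most miRNAs of the libraries to a common level. The deletion was plain in the files: miR-21-5p had 1127 to 2087 reads in *MIR21*-KO against at least 4232696 in Ctrl. The first principal component over 598 tested miRNAs other than the family and miR-21, with 71.9% of the variance, did not part the conditions. At one end lay set A (*MIR21*-KO replicate 3 with Ctrl replicates 1 and 2), and at the other set B (Ctrl replicate 3 with the remaining *MIR21*-KO pair, replicates 1 and 2). No label names such sets, so what they are is not known. Along the second component (17.2% of the variance) the conditions did part, with Ctrl at 4.94 to 12.2 and *MIR21*-KO at -11.2 to -5.20. Values within the sets stand beside the group values for the sums and for each tested member. Of 16 miRNAs typical of blood, endothelium, muscle, liver, neurons or pluripotent cells, 12 were under 10 in all libraries, of which 4 (miR-302a-3p, miR-302b-3p, miR-302d-3p and miR-367-3p) were at 0 throughout. Their summed value ran from 980 to 3774 in Ctrl and from 684 to 2574 in *MIR21*-KO. Most of it was miR-126-3p, an endothelial miRNA, at 664 to 3648 and higher in each set A library than in each set B library, as miR-200a-5p was, while miR-200a-3p was lower in each. Its part in the results was not tested.

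The family took a small share of the miRNA reads of A549 cells, nearly all of that share from chromosome 1. In Ctrl the 8 members summed to 2631 ± 582 (SD, n = 3), of which the chromosome 1 cluster made up 98.1% to 98.5%. In *MIR21*-KO the sum was 1229 ± 472 (SD, n = 3), which was 46.7% of Ctrl, or 62.5% within set A and 44.3% within set B, and the chromosome 1 cluster made up 92.8% to 95.4%. Of all miRNA reads the family took from 0.147% (Ctrl replicate 2, 95% Wilson interval from 0.144% to 0.150%) to 0.245% (*MIR21*-KO replicate 3, from 0.240% to 0.249%). Such intervals describe counting error alone. Of the reads other than miR-21 it took 0.519%, 0.466% and 0.516% in the Ctrl libraries and 0.151%, 0.186% and 0.245% in the *MIR21*-KO libraries. Measured against the rest of the miRNAs, the family thus lay lower in each *MIR21*-KO library than in each Ctrl library, while its shares of all reads overlapped between the groups. In bulk RNA, fewer cells making a miRNA and less of it per cell cannot be told apart.

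miR-200b-3p led the family in both groups. By mean Ctrl value, miR-200b-3p came first at place 47 of all miRNAs, followed by miR-200a-5p (place 72), miR-200a-3p (124), miR-429 (164), miR-200c-3p (212), miR-200b-5p (344), miR-141-3p (542) and miR-141-5p (781). The ranges of the Ctrl libraries did not overlap between miR-200b-3p and miR-200a-5p, nor from miR-429 down to miR-141-3p between neighbours. The neighbours miR-200a-5p and miR-200a-3p overlapped, as did miR-200a-3p and miR-429, and miR-141-3p and miR-141-5p. In *MIR21*-KO, miR-200c-3p moved above miR-429 in the mean, with overlapping ranges.

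**Figure D1:**
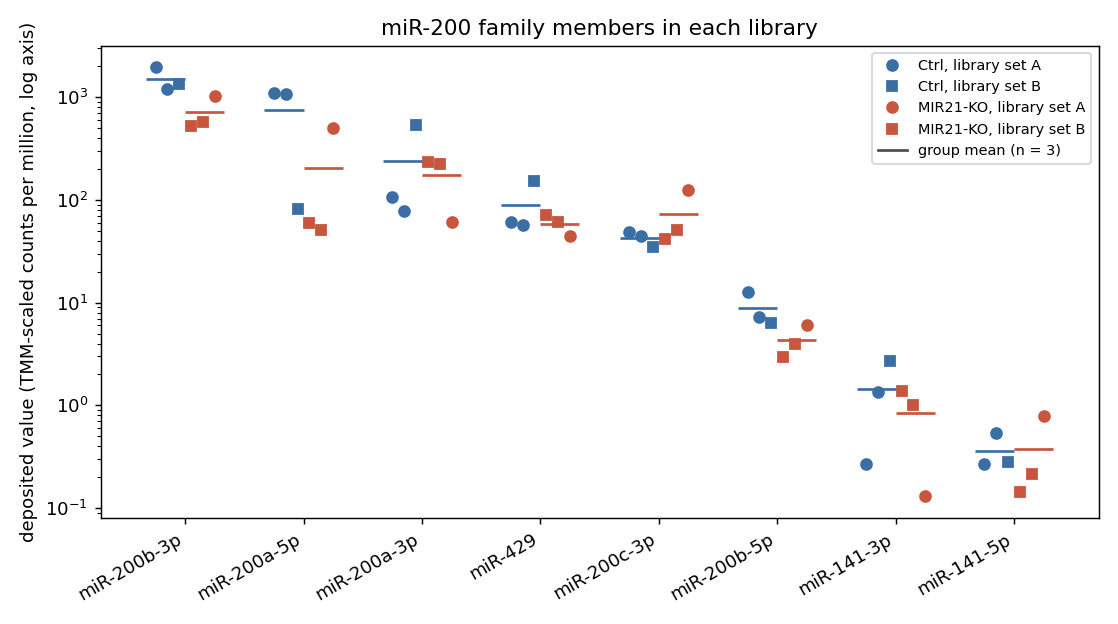
Deposited value (log axis) of each of the 8 members in each of the 6 libraries, with blue for Ctrl, red for *MIR21*-KO, circles for library set A, squares for set B and lines for group means (n = 3). The *MIR21*-KO points of miR-200b-3p and miR-200b-5p lie below all Ctrl points, and the miR-200a strands split by set rather than by condition.

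The comparison of *MIR21*-KO with Ctrl asked whether the loss of miR-21 was accompanied by a changed level of the family. It was tested with limma on log2(value + 1), where fold changes of scarce miRNAs are understated, over the 607 miRNAs that reached a value of 1 in 3 or more of the 6 libraries. Of the members, 7 passed this filter and miR-141-5p did not. With condition as the only term, 0 members were called higher and 0 lower at an adjusted p under 0.05, against 0% and 0.824% of all miRNAs tested. At an unadjusted p under 0.05 from limma 1 member was lower (miR-200b-3p), as were 4.45% of all miRNAs. edgeR and DESeq2, run on the reads recovered from the values, also called 0 members, with 0 and 2 at an unadjusted p under 0.05. The 2 were the strands of MIR200B (adjusted p from DESeq2 0.253 for miR-200b-3p and 0.396 for miR-200b-5p). The shares of all miRNAs at that cut in edgeR and DESeq2 are not given here. The 7 members had a median log2 fold change of -0.48, against 0.24 for all miRNAs tested.

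miR-200b-3p, the most abundant member and a ZEB1 and ZEB2 regulator, had values of 1953, 1193 and 1343 in Ctrl and of 529.9, 577 and 1038 in *MIR21*-KO. Every *MIR21*-KO library lay below every Ctrl library. The log2 difference between the groups was -1.10 in limma, its standard error 0.45 and its adjusted p 0.431. The other strand of the hairpin, miR-200b-5p, ran in parallel at a fraction of the level, with 12.8, 7.30 and 6.35 in the Ctrl libraries and 2.95, 3.97 and 6.11 in the knockouts (log2 fold change -0.86, standard error 0.44, adjusted p = 0.534 from limma). Here, too, the groups did not overlap, though the closest libraries differed by little and each value rests on 27 to 55 reads. These were the 2 of 7 tested members with all *MIR21*-KO libraries below all Ctrl libraries, which held for 6.59% of all miRNAs tested. They are strands of one hairpin and not independent.

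In MIR200A the strands went opposite ways with the library sets. In Ctrl miR-200a-5p stood at 1097, 1069.9 and 82.3, and in *MIR21*-KO at 60.2, 51.2 and 497. miR-200a-3p, which shares its seed with miR-141-3p, stood at 108, 78.7 and 537 in the Ctrl libraries and at 235, 226 and 60.6 in the knockouts. Both conditions thus held libraries rich in 5p and libraries rich in 3p, and the groups overlapped for both strands. With condition alone, the log2 fold changes were -1.98 for miR-200a-5p (standard error 1.24, adjusted p = 0.624 from limma) and -0.17 for miR-200a-3p (standard error 0.87, adjusted p = 0.938 from limma). The latter turned positive without Ctrl replicate 3 (0.68) or without *MIR21*-KO replicate 3 (0.47).

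The ratio of 5p to 3p within a library does not depend on scaling. For miR-200a it was 10.2 and 13.6 in Ctrl replicates 1 and 2 and 8.21 in *MIR21*-KO replicate 3, but 0.153 in Ctrl replicate 3 and 0.256 and 0.227 in *MIR21*-KO replicates 1 and 2. The strand in excess therefore changed with the set in both conditions. On the log2(value + 1) scale the set A mean exceeded the set B mean by 5.62, the widest gap of the 75 hairpins with both strands at a mean value of at least 10, where the median gap in either direction was 1.79. A ratio that went with the set was common: set A and set B did not overlap in 55 of these 75 hairpins. The excess strand differed between the sets, with every library on its set's side, in 6 of the 75 (8%). miR-200b did not share in it, since its 3p strand exceeded its 5p strand by 145 to 211 times in all 6 libraries. The sets were read from miRNAs outside the family in the same libraries, the strands of other hairpins included. This is thus a description without a test. What set A and set B stand for is not known and was not tested.

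Counted over both strands, MIR200A was less divided. The sums were 1204, 1149 and 619.6 in the Ctrl libraries and 296, 277 and 558 in the knockouts. Each *MIR21*-KO library lay below each Ctrl library, with a narrow gap between *MIR21*-KO replicate 3 and Ctrl replicate 3, which belong to different sets. Within set A the *MIR21*-KO sum was 47.4% of the Ctrl mean on the log scale, and within set B it was 46.2%. For MIR200B the same figures were 68.0% and 41.2%.

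miR-429, the third hairpin of the chromosome 1 cluster, has the seed of miR-200b-3p and had its highest Ctrl value where miR-200a-3p did. It measured 61.4, 56.5 and 153 in the Ctrl libraries and 70.7, 61.4 and 44.2 in the knockouts. Ctrl replicate 3 was the high library, and the groups overlapped (log2 fold change -0.48, standard error 0.53, adjusted p = 0.743 from limma). Within each set the *MIR21*-KO libraries lay below the Ctrl libraries.

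On chromosome 12, miR-200c-3p did not share the lower level of its chromosome 1 relatives. It measured 49.1, 44.6 and 34.7 in the Ctrl libraries and 41.6, 51.1 and 126 in the knockouts, so that the mean of 73.0 ± 46.4 (SD, n = 3) rested on *MIR21*-KO replicate 3 and the groups overlapped (log2 fold change 0.60, standard error 0.54, adjusted p = 0.719 from limma). Without *MIR21*-KO replicate 3 the fold change was 0.12. miR-141-3p, made from the neighbouring hairpin, was scarce, with 1, 5 and 19 reads in the Ctrl libraries and 19, 14 and 1 in the knockouts (log2 fold change -0.34, standard error 0.48, adjusted p = 0.790 from limma). miR-141-5p had 1 to 6 reads in each library, and miR-200c-5p, the remaining strand of these hairpins, had 0 to 3. At 0 to 6 reads no difference between the groups was detectable for the latter pair.

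The balance of miR-200b-3p and miR-200c-3p, 1 strand from each locus, was shifted in the knockout. miR-200b-3p exceeded miR-200c-3p by 39.7, 26.7 and 38.7 times in the Ctrl libraries and by 12.7, 11.3 and 8.22 times in the *MIR21*-KO libraries. The groups did not overlap, within a set or across sets, and the ratio is free of the scaling between libraries. The pair was picked after its values were seen, so no test is given. The chromosome 1 cluster summed to 2586 ± 577 in the Ctrl libraries and to 1155 ± 426 (SD, n = 3 each) in the knockouts, or 44.7% of Ctrl. The chromosome 12 cluster summed to 44.6 ± 6.22 and 74.2 ± 46.1 (SD, n = 3 each), or 166% of Ctrl, with overlapping groups. Nearly all of that sum was miR-200c-3p. Its neighbour miR-141-3p went the other way, with log2 differences of -0.61 in set A and -0.75 in set B, on 1 to 19 reads in a library.

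With the library set as a further term in limma, the spread that the sets brought into the members was taken up. Of the 7 tested members, 3 were then called lower and 1 higher at an adjusted p under 0.05, against 6.43% lower and 11.7% higher of all miRNAs tested. miR-200b-3p had a log2 fold change of -0.92 (standard error 0.27, adjusted p = 0.0288 from limma), miR-200a-3p of -0.91 (0.27, adjusted p = 0.0335) and miR-200a-5p of -0.84 (0.26, adjusted p = 0.0355). miR-200c-3p was higher by 0.91 (0.30, adjusted p = 0.0496 from limma), next to the threshold. miR-429 (-0.80), miR-141-3p (-0.68) and miR-200b-5p (-0.66) missed the threshold (adjusted p from limma 0.0625, 0.141 and 0.168). The 5 chromosome 1 strands lay between -0.92 and -0.66, closer together than with condition alone (-1.98 to -0.17). The median of the 7 members was -0.80, and that of all miRNAs was 0.12. edgeR with the same term called the same 3 members lower, while miR-200c-3p had an adjusted p of 0.0554.

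These calls are fragile, since each set holds a single library of one condition and the sets were found in other miRNAs of the same 6 libraries rather than given by a label. With the set term and without Ctrl replicate 1, 1 member was called lower (miR-141-3p). Without Ctrl replicate 2 there were 5, and without Ctrl replicate 3 or any one *MIR21*-KO library there were 0. The share of all miRNAs called in each of these fits is not given here. How far the family stood out is therefore not shown by these counts. miR-200c-3p was called without Ctrl replicate 2 and in no other fit with 1 library fewer. With 1 library fewer the directions held. The fold changes of the chromosome 1 strands stayed between -1.28 and -0.41 in these 6 fits, and those of miR-200c-3p between 0.40 and 1.41. Scaling to total miRNA reads turned them: with the set term miR-200a-3p was then at 0.35, miR-200a-5p at 0.42, miR-200b-3p at 0.35, miR-200b-5p at 0.42 and miR-429 at 0.45, none of them called, and miR-200c-3p was at 2.15.

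**Figure D2:**
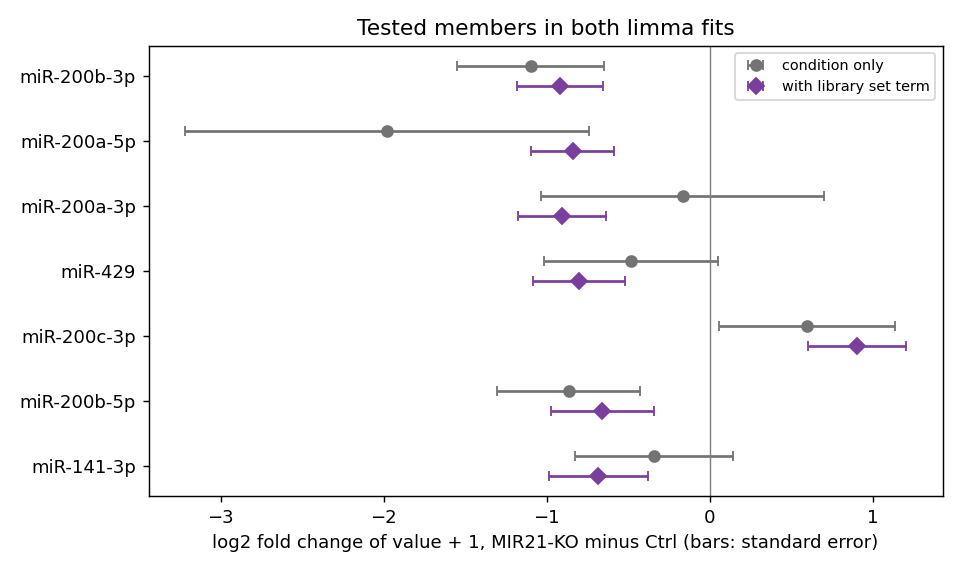
log2 fold change of value + 1, *MIR21*-KO minus Ctrl, of the 7 tested members in limma with condition only (grey circles) and with the library set term (purple diamonds), with bars for the standard error. With the set term the 5 chromosome 1 strands draw together between -0.92 and -0.66, and miR-200c-3p lies at 0.91.

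Set by set, without a model, 6 of the 7 tested members were lower in *MIR21*-KO within both sets, as were 26.5% of all miRNAs tested, and 1 (miR-200c-3p) was higher within both, as were 42% of all. In set A the log2 differences were -0.56 for miR-200b-3p, -1.12 for miR-200a-5p, -0.59 for miR-200a-3p and -0.41 for miR-429. In set B they were -1.28, -0.56, -1.22 and -1.20 in the same order. The scarce miR-200b-5p was at -0.59 in set A and -0.73 in set B, and miR-141-3p at -0.61 and -0.75. The difference of miR-200c-3p was 1.41 in set A and 0.40 in set B. The limma fits with the set term, whole or without replicate 3 of either condition, rest on these same differences. The differences are therefore not separate support for those fits. Strands of a hairpin and hairpins of a cluster share a transcript, so these members are not separate observations.

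With condition alone, the direction of the lower members other than miR-200a-5p hung on the scaling. miR-21-5p made up most of the Ctrl reads, and when libraries were scaled to their total miRNA reads, miR-21 included, the median fold change over all miRNAs moved from 0.24 to 1.34 (log2). On that scale miR-200b-3p (0.29), miR-200b-5p (0.32), miR-200a-3p (1.21), miR-429 (0.88) and miR-141-3p (0.28) turned positive, while miR-200a-5p stayed negative (-0.60). miR-200c-3p (1.95) was called higher. The share of all miRNAs called higher on that scale is not given here, so this call does not set miR-200c-3p apart from them. Relative to the median of all miRNAs, miR-200b-3p was at -1.34 with the deposited scaling and at -1.05 with this one, and miR-200c-3p was at 0.36 and 0.61. Under the other 3 scalings (the total without miR-21, median-of-ratios factors and median centring) each tested member kept its direction.

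Other miRNAs linked to epithelial or mesenchymal cells held members on both sides. Of 13 epithelial-associated miRNAs outside the family 12 were tested, and 1 was called lower with condition alone (miR-192-5p, the most abundant of the list, with a log2 fold change of -3.11 and an adjusted p of 0.0111 from limma). With the set term miR-194-5p (-3.11) and miR-215-5p (-2.28) were called lower as well, and miR-182-5p, an abundant epithelial and sensory miRNA, was called higher (0.66, adjusted p = 0.0362 from limma). These were 3 lower and 1 higher of 12, where 6.43% and 11.7% of all miRNAs tested were called. The 3 lower ones come from the clusters of miR-192, miR-194 and miR-215, so they are not separate observations. miR-101-3p, also abundant, was not called and stood at 3409 ± 500.3 in the Ctrl libraries and at 3245 ± 413 (SD, n = 3 each) in the knockouts. Of 11 mesenchymal-associated miRNAs 9 were tested and 0 were called with condition alone. With the set term miR-10b-5p (1.37) and miR-143-3p (0.94) were called higher and miR-9-5p (-1.59) lower, while miR-221-3p (0.10) and miR-222-3p (-0.24), abundant in these cells, were not called. These were 2 higher and 1 lower of 9, to be read against the same shares of all miRNAs. The median log2 fold change was 0.08 for the former list and 0.28 for the latter with condition alone, against 0.24 for all miRNAs tested. With the set term it was 0.05 and 0.10, against 0.12. No test was made of either list as a whole.

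The profile of miR-200b-3p was set beside those of the 327 miRNAs outside the family with a mean value of at least 10, by the root mean square difference of log2(value + 1) over the 6 libraries after each miRNA's own mean was taken off. The closest were miR-1278 (0.24), miR-335-3p (0.25), miR-32-3p (0.30), miR-92a-3p (0.34) and miR-573 (0.34). Its own 5p strand was closer than any of them (0.19). Among the other family members miR-141-5p, at no more than 6 reads in a library, differed by 0.63, miR-429 by 0.80, miR-200c-3p by 0.89, miR-141-3p by 0.97, miR-200a-3p by 1.39 and miR-200a-5p by 1.47, all further from it than the 5 miRNAs named above.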

How the data were processed

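Small RNA of 3 Ctrl and 3 *MIR21*-KO samples was sequenced. The labels of all 6 name Novogene for library preparation and sequencing, whereas the study's methods give Novogene or a NEXTflex kit with sequencing at TU Dresden as alternative routes for its small RNA libraries, without saying which was used for which. The submitters' processing notes list cutadapt 1.14, Bowtie2 2.3.2, SAMtools 1.5, featureCounts 1.5.3, edgeR 3.18.1 and hg38. The annotation release and the treatment of reads with several matches are not given in the sources used here. The authors deposited 1 signal per miRNA and library (2813 rows), with fold changes, p-values and FDRs of their own that were not used. All values above 0 were whole multiples of the smallest (100%, tolerance 1e-06), which returned the reads.

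Rows of one name were summed. The 8 members had 1 row each. Values were fitted as log2(value + 1) in limma 3.58.1 under R 4.3.3, with a trended prior, two-sided, with Benjamini-Hochberg adjustment over 607 miRNAs. The reads went into edgeR 4.0.16 (quasi-likelihood) and DESeq2 1.42.0 as alternatives, and the library set term, other scalings and left-out libraries were others. The limma fit with condition alone was also run on simulated counts that held no library sets. That run says nothing on how either fit behaves where such sets are present. Replicates differed by far more than sampling noise (chi-square of at least 130.4 per degree of freedom). Each library was counted as 1 sample, though such a spread does not show that they come from separate cultures.

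Named are all members, miR-200c-5p, miR-21, the called and the 3 most abundant miRNAs of the epithelial and mesenchymal lists, and the 5 miRNAs most like the top member. The members, the lists and the library sets were chosen with earlier results of these data known.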

Additional observations from a re-analysis of the deposited data

How the results depend on the processing

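Calls changed with the settings below, and unless a reason stands beside a change, the cause was not tested. With condition alone 0 members were called higher, but 1 (miR-200c-3p) with scaling to total miRNA reads and 1 with the library set term. 0 were called lower, but 3 with the set term, and likewise 3 when edgeR was given this term, a setting chosen after seeing the data. With the set term, the 1 call of a higher member became 0 under median centring, under median-of-ratios factors and under the total without miR-21, and ran from 0 to 1 with each library left out. The 3 calls of lower members became 0 with the total of all miRNAs, where the chromosome 1 strands turned positive, and ran from 0 to 5 with each library left out. These settings were added after seeing the data. Shares of all miRNAs called are given only for limma with condition alone and with the set term, on the deposited values of all 6 libraries. The total of all miRNAs raises every member, since miR-21 is lost from it: the summed log2 ratio of *MIR21*-KO over Ctrl went from -1.14 to 0.25 for the family, from -1.20 to 0.19 for the chromosome 1 cluster and from 0.57 to 1.96 for the chromosome 12 cluster, and single members turned to 1.21 (miR-200a-3p), 0.29 (miR-200b-3p), 0.32 (miR-200b-5p), 0.88 (miR-429) and 0.28 (miR-141-3p). With each library left out, miR-200a-3p ran from -0.70 to 0.68 and miR-141-3p from -0.75 to 0.022. Of the single members' values under the alternatives, 122 kept direction and side of the threshold, 8 became called and 8 reversed.

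Same-numbered libraries deviated in opposite directions (correlation -0.79, -0.60 and -0.88). In each case they also lay in different library sets, so these correlations cannot show whether the numbers pair them. With the replicate block, 0 members were called and the fold change of miR-200b-3p was -1.10 (adjusted p = 0.950 from limma). Counting error matters for miR-141-3p, miR-141-5p and miR-200c-5p, with at most 19 reads in a library.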

Other observations

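The other 5 hairpins whose strand in excess changed with the library set, named after their values were seen, were miR-195, miR-369, miR-30e, miR-671 and miR-485. For miR-30e, the most abundant of them, the log2 ratio of 5p to 3p (value + 1) was -1.37, -1.02 and 3.64 in the Ctrl libraries and 2.77, 2.50 and -1.48 in the *MIR21*-KO libraries. miR-195 went the same way as miR-30e, with -3.66, -3.75 and 0.87 in the Ctrl libraries and 1.54, 1.68 and -3.82 in the knockouts, while miR-369 went the way of miR-200a, with 1.62, 1.32 and -2.99 in the Ctrl libraries and -3.50, -3.12 and 0.76 in the knockouts. In these hairpins the difference between the sets was wider than that between conditions within a set. They were picked for their split by set, and their strands were among the miRNAs that gave the sets. The wider difference therefore follows in part from that choice.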
